A study of Mus musculus with 25 samples.

Results

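The aldo-keto reductases described here are 10 genes: Akr1d1, the AKR1C genes Akr1c6, Akr1c12, Akr1c13, Akr1c14, Akr1c18, Akr1c19 and Akr1c20, and the AKR1B genes Akr1b3 and Akr1b7. They were chosen by gene symbol out of the 48795 genes in each table, with the expression results of these same libraries already known, and no contrast or threshold fixed the list. Their levels and changes, and whether they passed the thresholds of the fit across all genes, are therefore given as a description and support nothing by themselves. Adjusted p-values are printed for genes outside the list. All 10 passed the filter on low counts.

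RNA was sequenced from livers and liver tumors of male C57BL/6J mice in 5 groups. The mice were either left without or given one intraperitoneal dose of diethylnitrosamine (DEN), a liver carcinogen, of 25 mg/kg at 2 weeks of age. From weaning they ate a control diet (CD) or a Western diet (WD), and tissue was taken at 36 to 39 weeks of age. Mice without DEN gave 3 livers on CD (nonDEN-L-CD) and 4 on WD (nonDEN-L-WD). DEN mice on CD gave 4 livers (DEN-L-CD), and those on WD gave 6 tumors (DEN-T-WD) and 8 pieces of the liver around tumors, called peritumoral (DEN-PT-WD). Tumors were not separated from the liver of DEN-L-CD mice, so these libraries may hold both, and no tumor group on CD is compared here. The labels do not say which tumor and peritumoral libraries share a mouse, and p-values measure the spread between these libraries.

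Aldo-keto reductases are cytosolic enzymes that use NADPH or NADH to reduce aldehydes and ketones. In liver, Akr1d1 is the steroid 5-beta-reductase, which acts both in bile acid synthesis and in the clearance of steroid hormones. The AKR1C enzymes are hydroxysteroid dehydrogenases, which interconvert keto and hydroxyl groups on steroids and also reduce foreign carbonyl compounds. The AKR1B enzymes include aldose reductase, Akr1b3, which turns glucose into sorbitol.

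The 7 AKR1C members lie together on mouse chromosome 13, within 474.3 kb between positions 4049011 and 4523345 of GRCm38, in the order Akr1c14, Akr1c18, Akr1c13, Akr1c19, Akr1c12, Akr1c6 and Akr1c20. Akr1c18, Akr1c12 and Akr1c20 are on the minus strand. Akr1b3 (chr6:34302434-34317478, minus strand), Akr1b7 (chr6:34412334-34423142, plus strand) and Akr1d1 (chr6:37530173-37568815, plus strand) are on chromosome 6. Promoter sequence from RefSeq (GRCm38.p6) was matched for 8 members. The closest pair of promoters were those of Akr1c12 and Akr1c13, the pair whose transcripts are also alike, and they are shown because reads of these genes are hard to assign. Over the 300 bases around the start, 284 of 304 aligned columns were identical (93.4%), against 45.8% to 58.3% for the other pairs among 28. The 250 bases before the start are printed 5′ to 3′ on the gene's strand (chr13:4279400-4279649, minus strand, and chr13:4190937-4191186, plus strand), and capitals mark the longest run of 75 bases that the pair shares without a difference.
Akr1c12: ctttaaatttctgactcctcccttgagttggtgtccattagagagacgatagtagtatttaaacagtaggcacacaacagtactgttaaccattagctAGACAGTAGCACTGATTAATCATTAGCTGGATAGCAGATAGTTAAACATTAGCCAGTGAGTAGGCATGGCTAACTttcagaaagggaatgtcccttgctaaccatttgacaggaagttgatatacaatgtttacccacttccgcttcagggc
Akr1c13: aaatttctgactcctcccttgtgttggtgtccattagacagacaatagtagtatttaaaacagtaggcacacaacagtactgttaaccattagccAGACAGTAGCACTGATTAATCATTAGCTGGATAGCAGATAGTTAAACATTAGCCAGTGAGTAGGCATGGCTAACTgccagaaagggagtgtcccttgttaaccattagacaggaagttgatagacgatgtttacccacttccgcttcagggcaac

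The same window is shown for the AKR1C members that differed most in opposite directions between tumor and peritumoral liver, Akr1c18 (chr13:4150647-4150896, minus strand) and Akr1c6 (chr13:4434093-4434342, plus strand), and for Akr1b7 (chr6:34412112-34412361, plus strand) and Akr1d1 (chr6:37529923-37530172, plus strand). Capitals mark matches on either strand to any of 6 motifs that were searched: the TATA box TATAAA, the nuclear receptor hexamer AGGTCA, a STAT5 motif TTCNNNGAA, the antioxidant response core TGACNNNGC, an HNF1 hexamer GTTAAT and a C/EBP motif TTGCNNAA. The stretch of Akr1c18 holds none, and its AGGTCA match lies downstream of the start.
Akr1c18: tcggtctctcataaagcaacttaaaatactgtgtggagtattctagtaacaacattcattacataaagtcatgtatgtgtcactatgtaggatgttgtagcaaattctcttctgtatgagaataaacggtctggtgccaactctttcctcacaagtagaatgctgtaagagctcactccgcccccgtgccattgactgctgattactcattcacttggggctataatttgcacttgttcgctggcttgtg
Akr1c6: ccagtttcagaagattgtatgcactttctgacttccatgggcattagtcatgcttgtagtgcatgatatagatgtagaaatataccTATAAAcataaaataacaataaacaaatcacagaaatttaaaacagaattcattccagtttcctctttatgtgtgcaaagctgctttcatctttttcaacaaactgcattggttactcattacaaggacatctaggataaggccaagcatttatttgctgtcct
Akr1b7: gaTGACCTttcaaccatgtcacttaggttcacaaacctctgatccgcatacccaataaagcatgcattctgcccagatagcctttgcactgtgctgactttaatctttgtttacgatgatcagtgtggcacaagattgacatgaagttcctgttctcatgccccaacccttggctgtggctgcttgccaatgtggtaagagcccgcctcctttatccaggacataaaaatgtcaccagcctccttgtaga
Akr1d1: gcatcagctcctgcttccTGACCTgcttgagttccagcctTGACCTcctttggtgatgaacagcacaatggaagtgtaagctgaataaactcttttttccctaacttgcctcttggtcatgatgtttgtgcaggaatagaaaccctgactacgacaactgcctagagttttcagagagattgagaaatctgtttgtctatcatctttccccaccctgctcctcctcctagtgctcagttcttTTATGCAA

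Few matches were found in the windows of 300 bases. The hexamer AGGTCA was in 3 of 8 member promoters (Akr1d1, with 2 matches, Akr1b7, and Akr1c18 downstream of the start) and in 16.3% of 32851 promoters. TATAAA was in 1 of 8 (Akr1c6) against 13.6%, the STAT5 motif in 1 (Akr1c19) against 8.3%, the antioxidant core in 1 (Akr1c19) against 12.4%, the C/EBP motif in 1 (Akr1d1) against 10.8% and GTTAAT in 0 against 7.1%. These matches are a description of letters and not of bound sites.

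The total of expected counts per library ranged from 21530083 to 38074411. Expected counts are the estimates of reads per gene that RSEM gives, and normalized counts are these values scaled to a common library size. Hepatocyte genes were high in all libraries, with a summed TPM (a share of transcripts that corrects for gene length) over 8 markers of at least 31100. A few libraries stood apart. In DEN-T-WD replicate 5 that sum was 31100, against 111000 to 132000 in the other 5 tumors, and the normalized count of Apoa1 was 55197 against 260898 or more. In nonDEN-L-WD replicate 1, genes of kidney were present (Kap at a normalized count of 15039, Slc34a1 at 2344, Umod at 2222), at 2.3 or less in the other libraries. In DEN-L-CD replicate 3, adrenal cortex markers summed to 13.9 TPM, against 1.13 to 2.06 in the other 3 libraries of that group. Pancreatic acinar markers ranged from 0.25 to 4760 TPM and were spread over all 5 groups. The kidney genes were picked after their values were seen. The kidney and adrenal values and those of DEN-T-WD replicate 5 are set beside results they touch. The pancreatic sum had a median of 209 TPM in DEN-PT-WD and 2.55 TPM in DEN-T-WD, and its part was not tested.

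The members together made up 2014 ± 197 TPM in DEN-PT-WD (SD, n = 8), 2008 ± 188 TPM in nonDEN-L-WD (n = 4) and 1963 ± 188 TPM in DEN-L-CD (n = 4). The sum was lower in DEN-T-WD, at 1522 ± 116 TPM (n = 6), and lowest in nonDEN-L-CD, at 1313 ± 56.8 TPM (n = 3). The nonDEN-L-CD and DEN-T-WD libraries, at up to 1378 and 1687 TPM, were below all libraries of the other 3 groups, whose lowest was 1717. TPM is a share, and the summed TPM of 8 hepatocyte markers was 111000 to 132000 in 5 of the 6 tumors, against 39900 to 68800 in the 19 other libraries. Akr1c6 alone was 34.6% ± 6.3 of this sum in DEN-T-WD. Its share was 56.8% ± 2.3 in DEN-PT-WD and 59.0% ± 3.3 in DEN-L-CD, and without DEN it was 65.0% ± 0.75 on WD and 65.3% ± 3.0 on CD. Akr1c18 went the other way, from 0.0155% ± 0.0101 (CD) and 0.00501% ± 0.0042 (WD) without DEN to 17.0% ± 8.7 in DEN-T-WD. It was 2.50% ± 2.4 in peritumoral liver and 0.539% ± 0.548 in DEN-L-CD, where replicate 4 was at 1.36% and the median at 0.307%.

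**Figure D1:**
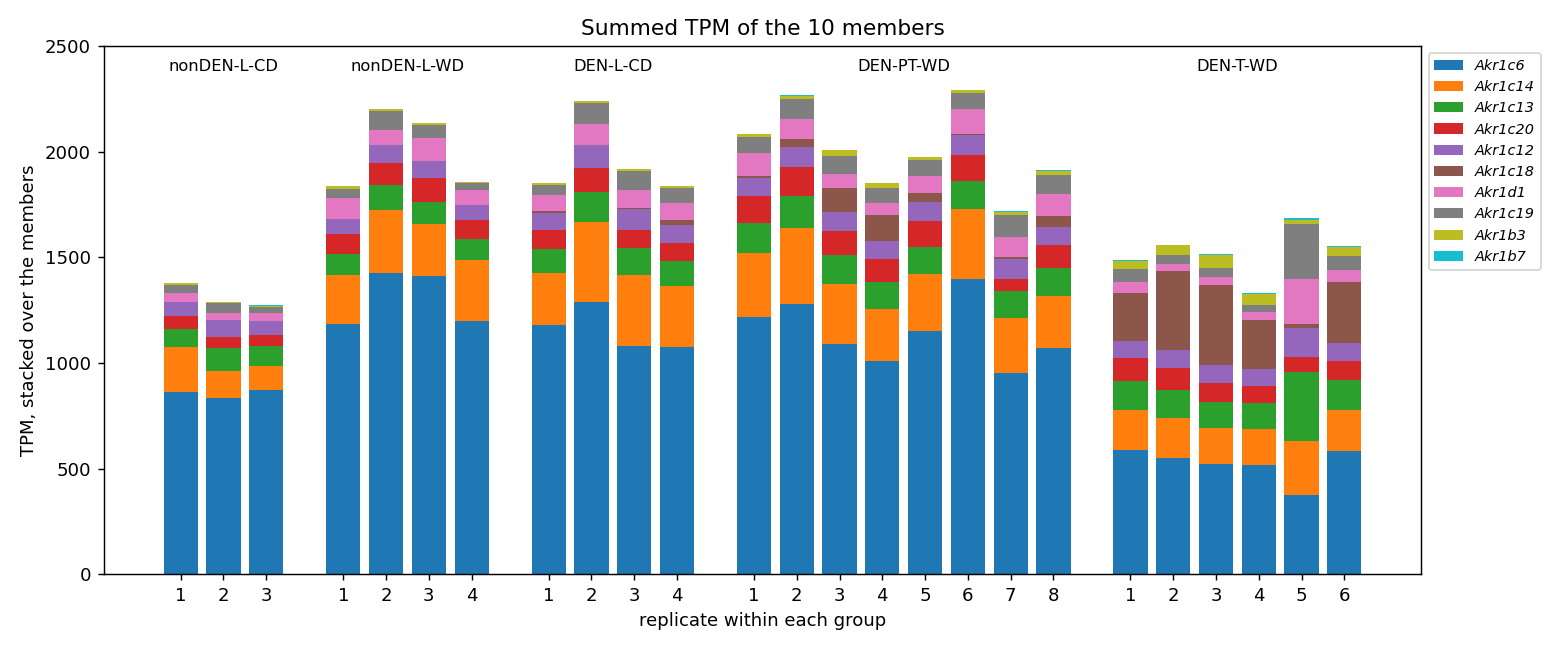
Stacked bars give the TPM of the 10 members in each of the 25 libraries, by group and replicate number. The part of Akr1c6 is shortest in the 6 tumors, and the part of Akr1c18 is wide in 5 of them and narrow in DEN-T-WD replicate 5.

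On the TPM scale, which allows levels of different genes to be set side by side, Akr1c6 was the highest member in each group, from a mean of 522 TPM in DEN-T-WD to 1306 TPM in nonDEN-L-WD. Akr1c14 was next in the 4 groups other than DEN-T-WD, at 151 to 313 TPM, and its libraries did not overlap with those of the members above and below it there. Akr1c13, Akr1c12, Akr1c20, Akr1d1 and Akr1c19 followed at 37.3 to 135 TPM, and in nonDEN-L-WD and DEN-PT-WD the ranges of each neighbouring pair among them overlapped. Akr1b3 was at 6.54 to 18.3 TPM in these 4 groups. The lowest 2 were Akr1b7 and Akr1c18 without DEN, at 0.1 to 0.547 TPM. In DEN-T-WD, Akr1c18 was the second highest member at 254 TPM, and the ranges of all neighbours down to Akr1b3 overlapped, while Akr1b7 at 5.70 TPM stood below Akr1b3 at 43.2 TPM.

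Akr1c18 is the 20-alpha-hydroxysteroid dehydrogenase, which inactivates progesterone. Its normalized counts were 2.3, 3.4 and 8.0 in nonDEN-L-CD. On WD without DEN they were 2.0, 0, 5.2 and 2.1. They were 136, 101, 155 and 606 in DEN-L-CD. Peritumoral liver ran from 118 through a median of 815 to 2401, and tumors from 271 through a median of 4899 to 7362. All DEN libraries were thus above all libraries without DEN, and peritumoral and tumor libraries overlapped through DEN-T-WD replicate 5 at 271, since the other 5 tumors started at 4081 and the peritumoral libraries ended at 2401. The 4 nonDEN-L-WD libraries held 9 counts in all, which set their mean at 2.31 with a 95% exact Poisson interval of 1.06 to 4.38 that covers counting error only. Against this mean the DEN-PT-WD mean was 426-fold higher (interval 224 to 931 from the low group's counts) and the DEN-T-WD mean 2040-fold higher (1080 to 4470). In nonDEN-L-CD, with 12 counts, the DEN-L-CD mean was 54.2-fold higher (31.0 to 105). This mean rests in part on DEN-L-CD replicate 4 at 606, and the fitted log2 fold change was 5.71 with it and 4.79 without it.

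Akr1c6, a 17-beta-hydroxysteroid dehydrogenase of liver, was lowest in tumors. Its normalized counts were 26390, 23396 and 26090 in nonDEN-L-CD. The nonDEN-L-WD libraries had 30528, 34684, 37369 and 37541, and DEN-L-CD had 35173, 35896, 30130 and 29847. In DEN-PT-WD they ran from 21227 through 25324 to 33324. In the tumors they ran from 7259 through 11570 to 12070, so that no tumor reached a library of another group, and the 5 tumors other than replicate 5 lay within 11296 to 12070. Both nonDEN-L-WD and DEN-L-CD lay above nonDEN-L-CD without overlap.

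Akr1c14 is the 3-alpha-hydroxysteroid dehydrogenase. Its normalized counts were 12133, 6795 and 6543 in nonDEN-L-CD, so that replicate 1 was within the range of nonDEN-L-WD (11740 to 17393). DEN-L-CD had the highest mean, with values of 14046, 20601, 18157 and 15589. Peritumoral liver ran from 10950 through 12198 to 16472, and DEN-T-WD from 7341 through 7489 to 9328, below all peritumoral libraries. Only nonDEN-L-CD replicates 2 and 3 were below all tumors.

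Akr1d1 had normalized counts of 2603, 1797 and 2207 in nonDEN-L-CD. The nonDEN-L-WD libraries had 4975, 3217, 5654 and 4327, and DEN-L-CD had 4570, 5427, 4687 and 4341. Each library of these last 2 groups was above nonDEN-L-CD. DEN-PT-WD ran from 2470 through 4300 to 5565. In the tumors the values were 2023, 1387, 1482, 1578, 8340 and 2312, so that 5 tumors were below all peritumoral libraries and replicate 5 was above the highest library of every other group.

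Akr1c12 and Akr1c13 are a close pair of AKR1C enzymes. They share 28.6% and 24.2% of their 50-base transcript words with each other, so the split of reads between them is uncertain. Both were level over most groups. Akr1c12 ranged from 1478 to 2096 normalized counts outside DEN-L-CD and DEN-T-WD replicate 5, and it was 2266, 2763, 2484 and 2185 in DEN-L-CD and 2473 in that tumor. Akr1c13 ranged from 2236 to 2970 outside DEN-L-CD and that tumor, was 2902, 3328, 2978 and 2747 in DEN-L-CD, and reached 5278 in DEN-T-WD replicate 5.

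Akr1c19 and Akr1c20 are AKR1C oxidoreductases of steroids and foreign carbonyls. Akr1c19 ran from 1340 to 2460 in DEN-L-CD, 951 to 1893 in nonDEN-L-WD and 707 to 1166 in nonDEN-L-CD. Its range in peritumoral liver was 1333 to 2037. In the tumors it was 1046, 781, 851, 625.3, 4270 and 1154, so that replicate 5 was above every other library and the other 5 tumors were below all peritumoral libraries. Akr1c20 was 1566, 1307 and 1312 in nonDEN-L-CD and 2054 to 2628 in nonDEN-L-WD, without overlap. It was 2081 to 2718 in DEN-L-CD and 2138 to 2865 in 7 of 8 peritumoral libraries, with replicate 7 at 1079. In the tumors it was 1906, 1846, 1715, 1567, 1133 and 1610.

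Akr1b3 and Akr1b7 were low without DEN and highest in tumors. Akr1b3 had normalized counts of 219, 161 and 203 in nonDEN-L-CD. It ran from 205 to 282 on WD without DEN, and from 255 to 310 in DEN-L-CD. It ran from 298 through 373 to 649 in DEN-PT-WD, where replicates 3 and 4 were highest, as for Akr1c18. The tumors were at 779, 960, 1338, 1154, 404 and 932, all but replicate 5 above every peritumoral library. Because 9.48% of its transcript words are shared with processed copies such as Gm6644, part of its reads is uncertain.

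Akr1b7, an aldose reductase-like enzyme abundant in the adrenal cortex and vas deferens, had normalized counts of 5.8, 24.1 and 13.7 in nonDEN-L-CD. The nonDEN-L-WD libraries had 5.9, 3.8, 11.3 and 3.2, and DEN-L-CD had 6.4, 10.8, 36.4 and 8.5. It ran from 13.7 through 25.9 to 49.3 in DEN-PT-WD, and was 100, 71.6, 89.8, 96.1, 187 and 111 in DEN-T-WD, above every other library. The value of 36.4 was in DEN-L-CD replicate 3, the library with adrenal markers, where Cyp11b1 was at 1.36 TPM and Hsd3b1 at 3.95 TPM, while Cyp11b1 was 0 in the other 3 libraries of that group. In the tumors the 7 adrenal markers summed to 1.59 to 15.1 TPM, Cyp11b1 was at 0 in 5 of 6 and at 0.16 TPM in replicate 3, and Nr5a1 was at 0 in all 6. The sum of 15.1 TPM was in replicate 5, where Cyp21a1 gave 11.4 TPM.

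**Figure D2:**
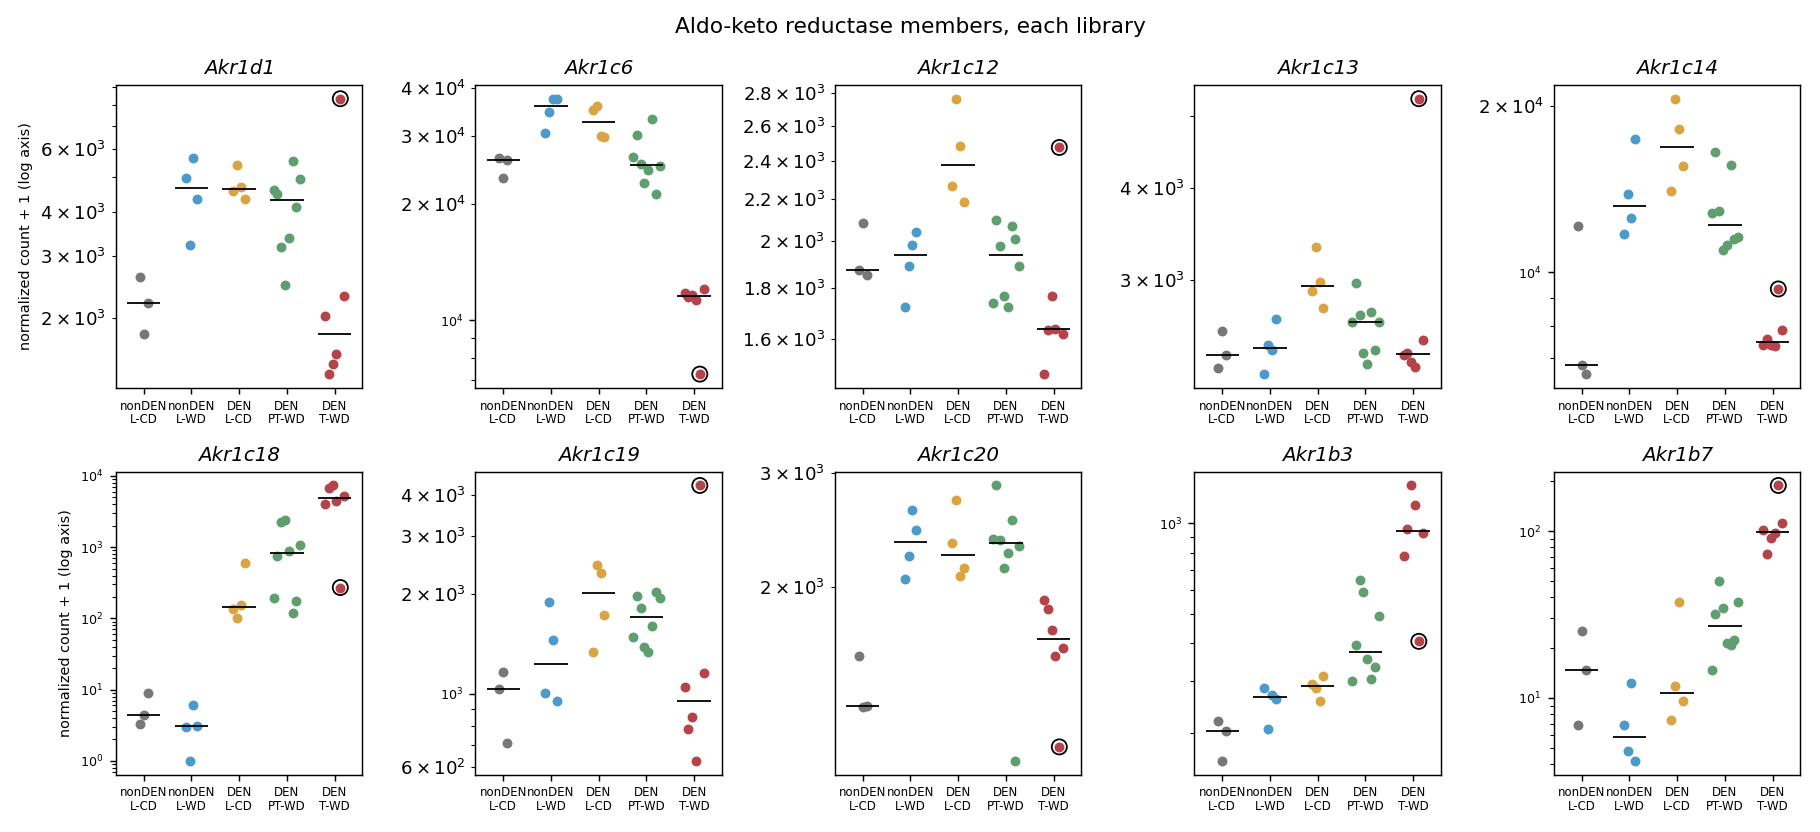
Each panel shows a member's normalized count plus 1 on a log axis in the 25 libraries, with a line at each group's median. The circled tumor is DEN-T-WD replicate 5, which lies outside the other 5 tumors for all 10 members. The y axes differ between panels.

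Changes between groups came from one edgeR fit over all 25 libraries. A gene is called at an adjusted p of at most 0.05 (Benjamini-Hochberg over 15625 tested genes) and a log2 fold change of at least 1 in size. Values are log2 fold changes ± SE. In bulk tissue, fewer cells of a type and less RNA per cell cannot be told apart.

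WD against CD without DEN asks what the diet did in liver not exposed to DEN. None of the 10 members was called, beside 5.28% of all tested genes. On the adjusted p alone, 3 members passed (Akr1c6, Akr1c14 and Akr1c20, all higher on WD), beside 23.2% of genes. The change was 1.04 ± 0.45 for Akr1d1, 0.75 ± 0.21 for Akr1c20, 0.71 ± 0.19 for Akr1c14 and 0.47 ± 0.15 for Akr1c6. It was -0.02 ± 0.13 for Akr1c12 and 0.02 ± 0.20 for Akr1c13. Akr1b7 was at -1.26 ± 0.61 and Akr1c18, with few counts in both groups, at -0.99 ± 2.66, neither called. Without nonDEN-L-CD replicate 1, whose Akr1c14 was 12133, the change of Akr1c14 was 1.04 ± 0.19 and was called. The median over the 10 members was 0.42, and over all tested genes 0.01. Of marker genes named after their values were seen, Gpnmb (3.14, lost in 3 of the 7 fits that left out 1 library), Col3a1 (1.39) and Col1a1 (1.26, lost in 1 of 7) were called higher and Sox9 (-1.36) lower. The sums of marker lists were 45.2 to 68.7 TPM in nonDEN-L-WD and 32.4 to 39.8 TPM in nonDEN-L-CD for cholangiocytes, 2.23 to 4.84 and 1.74 to 1.86 TPM for lymphocytes, and 154 to 250 and 161 to 177 TPM for stellate cells and fibroblasts, so that the last overlapped. On the adjusted p alone, 0 of 6 cholangiocyte markers were higher and 1 lower (Sox9), with a list median of -0.06. The part of these markers was not tested.

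DEN against no DEN on CD asks what the carcinogen left behind without WD. Both Akr1c18 (5.71 ± 1.5) and Akr1c14 (1.01 ± 0.20) were called higher, 2 of 10 beside 4.7% of genes. By adjusted p without the fold, 3 passed, with Akr1c20 at 0.73 ± 0.21, beside 21.3%. Akr1d1 was at 1.11 ± 0.45 and Akr1c19 at 1.02 ± 0.47, not called. Akr1d1 was called by DESeq2 (1.11) and with a replicate block (1.19). Akr1c18 was at 4.79 without DEN-L-CD replicate 4 and at 6.36 without nonDEN-L-CD replicate 3, called in both, and at 2.89 and not called by limma on log2(TPM + 1). Akr1b7 was at 0.08 ± 0.57, and at -0.77 ± 0.55 without DEN-L-CD replicate 3, the library with adrenal markers. The call of Akr1c14 sat at the fold threshold, and it was lost at 0.85 to 0.98 when nonDEN-L-CD replicate 2 or 3 or DEN-L-CD replicate 2 or 3 was left out. The median over the members was 0.64, against 0.02 over all tested genes. Lymphocyte markers summed to 2.67 to 7.29 TPM in DEN-L-CD and 1.74 to 1.86 TPM in nonDEN-L-CD, with 3 of 6 called higher. Cholangiocyte markers summed to 40.0 to 66.0 and 32.4 to 39.8 TPM, but on the adjusted p alone 0 of 6 were higher and 1 lower, with a median of -0.06. The part of both was not tested.

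Peritumoral liver against liver without DEN, both on WD, gave 2 called members of 10, Akr1c18 (8.69 ± 1.37) and Akr1b7 (2.20 ± 0.50), both higher, beside 2.76% of genes. With the adjusted p alone, 4 passed beside 12.4%, adding Akr1b3 (0.75 ± 0.24) and, lower, Akr1c6 (-0.42 ± 0.12). The other 6 members lay between -0.15 and 0.36. By limma on log2(TPM + 1), Akr1b7 was at 0.87 and not called. Leaving out nonDEN-L-WD replicate 1, with its kidney genes, changed no member's call, here or in the other comparisons that use that group. Without nonDEN-L-WD replicate 3, Akr1c18 was at 9.40. Markers of other cell types differed in this comparison too. On the adjusted p alone, 1 of 6 cholangiocyte and 3 of 6 endothelial markers were higher, beside 12.4% of genes. So were 4 of 7 Kupffer and macrophage and 4 of 7 stellate and fibroblast markers, and 0 of these lists were lower. The summed TPM of cholangiocyte markers was 73.9 to 325 in peritumoral liver and 45.2 to 68.7 in nonDEN-L-WD, that of endothelial markers 134 to 170 and 82.7 to 129, that of Kupffer and macrophage markers 183 to 447 and 139 to 228, and that of stellate and fibroblast markers 247 to 462 and 154 to 250. Gpnmb of macrophages (2.05 ± 0.57, adjusted p = 0.0229, called in 9 of the 12 fits that left out 1 library), Spp1 (1.46 ± 0.33, adjusted p = 0.00777, edgeR) and Lyve1 (1.09 ± 0.15, adjusted p = 0.000482) were called, all named after their values were seen. Their part in the members' values was not tested.

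Peritumoral liver on WD against DEN liver on CD gave no called member, beside 1.9% of genes. With the adjusted p alone, 1 passed beside 10.6%, Akr1c12 at -0.35 ± 0.10. Akr1c18 was at 1.98 ± 0.79, with overlapping libraries, and at 2.91 ± 0.91 and still not called without DEN-L-CD replicate 4. Akr1b7 was at 0.87 ± 0.44, and at 1.71 ± 0.46 and called without DEN-L-CD replicate 3. Cholangiocyte markers summed to 73.9 to 325 TPM in peritumoral liver and 40.0 to 66.0 TPM in DEN-L-CD, stellate and fibroblast markers to 247 to 462 and 168 to 205 TPM, endothelial markers to 134 to 170 and 101 to 113 TPM, and Kupffer and macrophage markers to 183 to 447 and 144 to 255 TPM. Of the 6 cholangiocyte markers, 1 (Spp1) passed the adjusted p, with a list median of 0.33. Gpnmb (3.88 ± 0.67, adjusted p = 0.00198, edgeR), Col1a1 (1.59), Spp1 (1.46) and Col3a1 (1.37), named after their values were seen, were called higher, and their part was not tested.

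Tumor against peritumoral liver asks what set the tumors apart from the liver around them. Akr1c6 was called lower (-1.26 ± 0.11), and Akr1c18 (2.26 ± 0.62), Akr1b7 (1.95 ± 0.34) and Akr1b3 (1.12 ± 0.20) were called higher, 4 of 10 beside 7.9% of genes. At the adjusted p alone, 6 passed beside 37.7%, adding Akr1c14 (-0.72 ± 0.14) and Akr1c20 (-0.46 ± 0.15). Akr1d1 was at -0.52 ± 0.32. Without DEN-T-WD replicate 5, Akr1d1 was at -1.22 ± 0.18 and called, Akr1c19 moved from -0.22 ± 0.32 to -0.93 ± 0.19, Akr1c13 from 0.14 ± 0.14 to -0.13 ± 0.06, and the 4 calls stayed. In the fit of only these groups with a replicate block, Akr1c18 at 2.39 was not called. The call of Akr1b3 was lost at 0.99 without DEN-T-WD replicate 3. Hepatocyte markers summed to 111000 to 132000 TPM in 5 of 6 tumors and to 39900 to 67500 TPM in peritumoral liver. The list went both ways, with 3 of 8 higher and 3 lower on the adjusted p alone and a median of -0.18. Apoa1 was called higher (1.04 ± 0.24, adjusted p = 0.00169, edgeR), and Clec4f of Kupffer cells was called lower (-1.04 ± 0.15, adjusted p = 1.42e-05). Both were at the fold threshold, and each was called in 9 of the 14 fits that left out 1 library. Cholangiocyte markers summed to 73.9 to 325 TPM in DEN-PT-WD and to 385 to 834 TPM in DEN-T-WD over 6 genes. Only 2 of the 6 passed the adjusted p, with a list median of 0.14. These were Spp1 (1.97 ± 0.27, adjusted p = 8.86e-06, edgeR) and Sox9 (1.38 ± 0.22, adjusted p = 4.55e-05), both called. Spp1 was the more abundant, at a mean of 13824 normalized counts in tumors, against 274 for Sox9. Apoa1, Clec4f, Spp1 and Sox9 were named after their values were seen. The part of these markers in the members' values was not tested.

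Tumor against liver without DEN, both on WD, had the same 4 called members, beside 15.7% of genes. The changes were 10.95 ± 1.42 for Akr1c18, 4.16 ± 0.52 for Akr1b7, 1.87 ± 0.26 for Akr1b3 and -1.68 ± 0.13 for Akr1c6. With the adjusted p alone, 6 passed beside 49.0%, with Akr1c14 at -0.83 ± 0.16 and Akr1c20 at -0.52 ± 0.17. Akr1d1 was at -0.67 ± 0.37, and at -1.37 ± 0.20 and called without DEN-T-WD replicate 5, where Akr1c19 moved from 0.13 ± 0.38 to -0.57 ± 0.22. Akr1c18 was at 11.67 without nonDEN-L-WD replicate 3. Cholangiocyte markers summed to 385 to 834 TPM in tumors and 45.2 to 68.7 TPM in nonDEN-L-WD, and stellate and fibroblast markers to 226 to 302 and 154 to 250 TPM. Of the 6 cholangiocyte markers, 2 (Spp1 and Sox9) passed the adjusted p, beside 49.0% of genes, with a list median of 0.84. Spp1 (3.43 ± 0.38, adjusted p = 2.19e-07, edgeR), Sox9 (2.11), Gpnmb (2.18), Col1a1 (1.81), Col3a1 (1.31) and Lyve1 (1.17) were called higher. Gpnmb ranged from 1.82 to 3.46 when 1 library was left out. Of the hepatocyte markers, Tat (-1.51) and Cps1 (-1.13) were called lower and Apoa1 (1.01) higher, the last in 4 of the 10 fits that left out 1 library. The part of these markers, named after their values were seen, was not tested. This comparison shares libraries with the tumor-peritumoral and peritumoral-control comparisons.

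The interaction asks whether the change with WD differed between DEN-exposed non-tumor liver and liver without DEN. Akr1c14 was called (-1.12 ± 0.25), 1 of 10 beside 2.75% of genes. Its change with WD was 0.71 ± 0.19 without DEN and -0.41 ± 0.15 in DEN mice. By the adjusted p alone, 2 passed beside 8.39%, with Akr1c6 at -0.80 ± 0.20. Akr1c20 was at -0.80 ± 0.27, Akr1d1 at -1.26 ± 0.57 and Akr1b7 at 2.13 ± 0.75. Akr1d1 was called in the fit of only the groups compared (-1.27), with a replicate block (-1.68) and with both (-1.53). The call of Akr1c14 was lost at -0.96 to -0.99 when nonDEN-L-CD replicate 2 or 3 or nonDEN-L-WD replicate 4 was left out. It was also lost by limma on log2(TPM + 1) (-0.96) and in the block fit of only the groups compared (-1.08). Akr1b7 was called, at 2.97 ± 0.69, without DEN-L-CD replicate 3, and at 2.50 without nonDEN-L-CD replicate 1. The DEN groups differ in tissue as well as diet here, since DEN-PT-WD is peritumoral liver and DEN-L-CD may hold tumors. Among marker genes, named after their values were seen, the interaction was called for the endothelial Lyve1 (1.52 ± 0.24, adjusted p = 0.000562, edgeR) and for Sox9 (1.62 ± 0.42, adjusted p = 0.0194, lost without nonDEN-L-CD replicate 3), and their part was not tested.

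**Figure D3:**
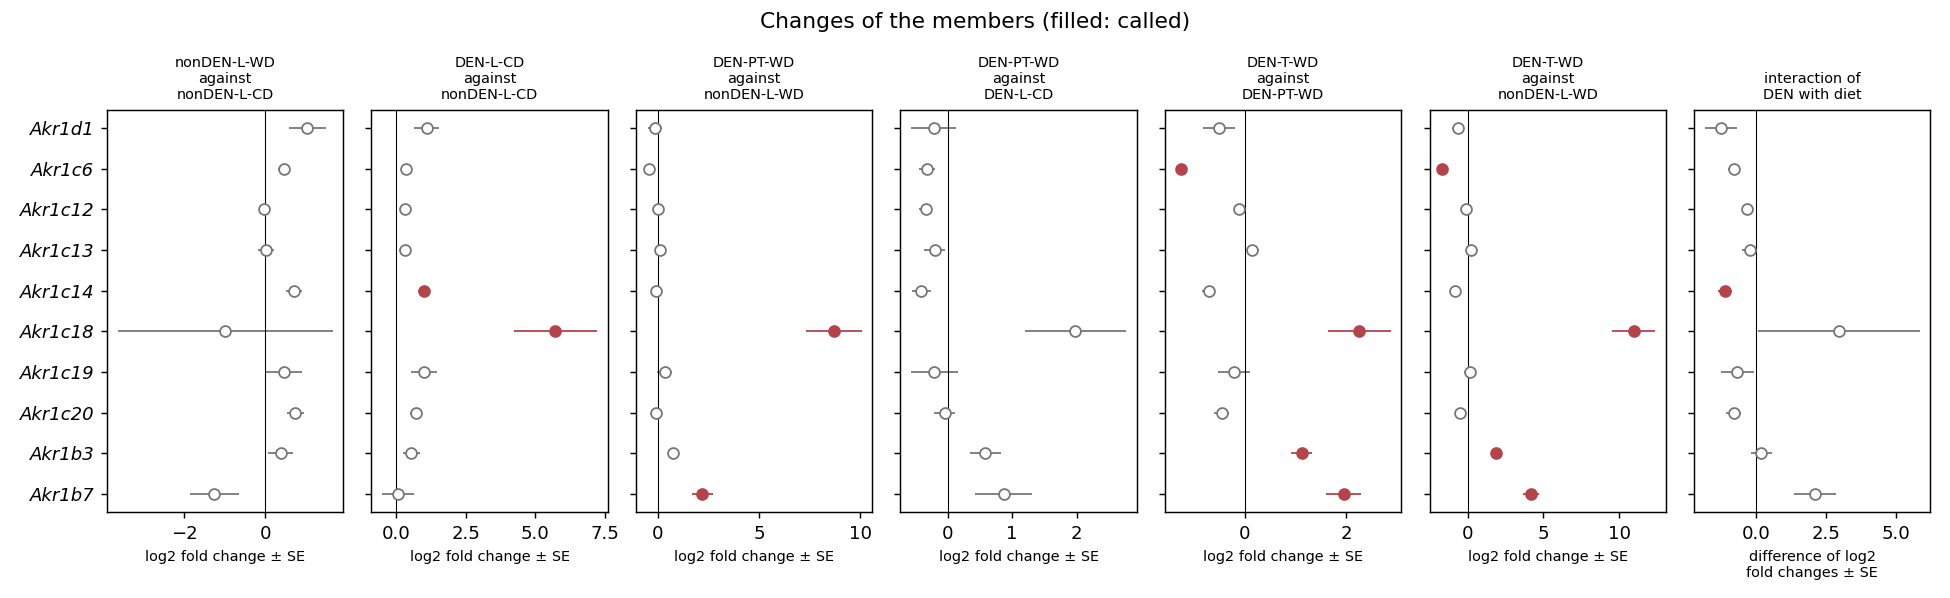
Points give each member's log2 fold change with its SE in the 6 comparisons between groups and the difference of 2 such changes for the interaction. Filled red points are called. The x axes differ between panels, and the widest bars are those of Akr1c18 in the interaction (SE 2.89) and between the groups without DEN (SE 2.66).

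Along the chromosome 13 cluster, called and uncalled genes lay side by side, and differences between neighbours were not tested. Akr1c18, at 2.26 ± 0.62 in tumor against peritumoral liver, lies between Akr1c14 at -0.72 ± 0.14 and Akr1c13 at 0.14 ± 0.14. Akr1c6 at -1.26 ± 0.11 lies between Akr1c12 at -0.11 ± 0.09 and Akr1c20 at -0.46 ± 0.15. The run of Akr1c13, Akr1c19 (-0.22 ± 0.32) and Akr1c12 held no called gene.

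**Figure D4:**
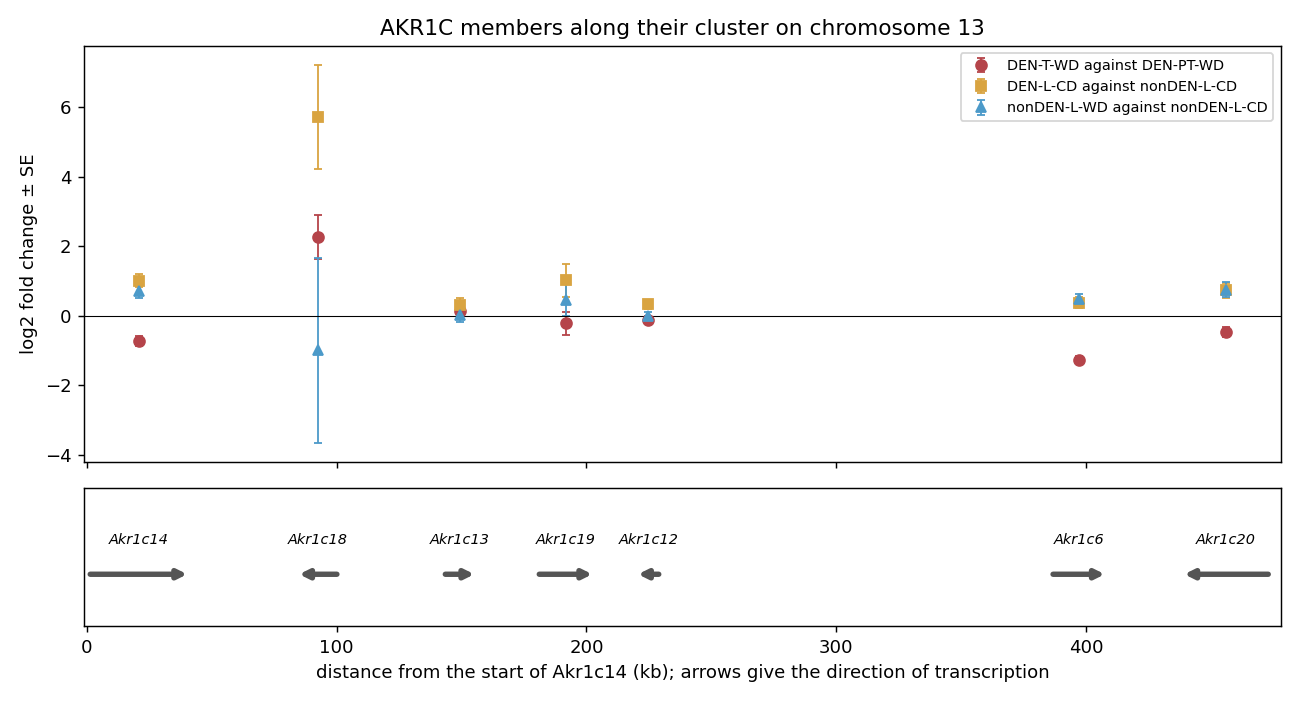
The upper panel gives log2 fold changes with SE of the 7 AKR1C members in 3 comparisons, placed by distance in kb from the start of Akr1c14. The lower panel gives the genes and their direction of transcription. In tumor against peritumoral liver, Akr1c18 is the only one of the 7 called higher and Akr1c6 the only one called lower.

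The other aldo-keto reductases of the mouse were looked at as a list of 10, of which 8 were tested and none was called in any of the 7 comparisons by edgeR, where 1.9% to 15.7% of all genes were. Without the minimum fold, 5 of 8 passed in tumor against nonDEN-L-WD, where 49.0% of all genes did: Akr1b8 (0.73 ± 0.16, adjusted p = 0.000663), Akr1b10 (0.78 ± 0.19, adjusted p = 0.00195) and Kcnab2 (0.97 ± 0.35, adjusted p = 0.0253) were higher, and Akr1a1 (-0.40 ± 0.09, adjusted p = 0.00103) and Akr7a5 (-0.46 ± 0.12, adjusted p = 0.00322) lower. Akr1b8 and Akr1b10 are the genes between Akr1b3 and Akr1b7 on chromosome 6. On WD, Akr1b8 was also higher in peritumoral liver than without DEN (0.81 ± 0.15, adjusted p = 0.00279). In tumor against peritumoral liver, Akr1a1, the aldehyde reductase, was at -0.29 ± 0.08 (adjusted p = 0.00502), and Akr1b8 at -0.08 ± 0.13 (adjusted p = 0.677). Akr1c21, the gene next to the cluster's end and known in mouse kidney, was not tested. It was at 1138 normalized counts in nonDEN-L-WD replicate 1, the library with kidney genes, and at 3.7 or less in the other 24.

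Bile acid synthesis genes, the pathway Akr1d1 belongs to, were tested as a list of 14. Between tumor and peritumoral liver 4 were called lower and 1 higher, beside 7.9% of all genes, with a list median of -0.93 against 0.01 over all tested genes. Cyp7a1, the rate-limiting enzyme, fell by 1.68 on the log2 scale, from a mean of 10012 ± 4450 (SD, n = 8) to 3128 ± 794 (n = 6) normalized counts (adjusted p = 0.000102, edgeR). Cyp8b1, which makes cholic acid, changed by -1.62 ± 0.20 (adjusted p = 3.5e-06) and Cyp7b1, of the alternative pathway, by -1.52 ± 0.35 (adjusted p = 0.00175). Cyp39a1, a 24-hydroxycholesterol hydroxylase, rose by 1.35 ± 0.22 (adjusted p = 5.88e-05). Against nonDEN-L-WD, 8 were called lower in tumors and 1 higher, beside 15.7% of all genes, led by Cyp8b1 (-2.28 ± 0.23, adjusted p = 8.59e-08).

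Against nonDEN-L-CD, 1 of these 14 genes was called, with WD (beside 5.28% of all genes) as with DEN (beside 4.7%), Cyp7a1. Its normalized count was 591 ± 328 in nonDEN-L-CD (n = 3), against 8622 ± 3000 on WD without DEN (n = 4) and 7216 ± 1620 with DEN on CD (n = 4), a change of 3.87 ± 0.46 with WD (adjusted p = 6.65e-06) and of 3.61 ± 0.45 with DEN (adjusted p = 1.25e-05, edgeR). Its interaction was -3.39 ± 0.52 (adjusted p = 0.000541). That of Cyp8b1 was -1.17 ± 0.35 (adjusted p = 0.0431), and this call was lost in 11 of the 19 fits that left out 1 library. Peritumoral liver had no called gene of this list against either nonDEN-L-WD or DEN-L-CD. On the adjusted p alone, 7 of 14 were lower and 0 higher than in nonDEN-L-WD, beside 12.4% of all genes, with a list median of -0.32 against 0.00 over all genes, and 2 were lower than in DEN-L-CD, beside 10.6%.

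Other steroid-converting enzymes were a list of 16. With WD and no DEN, 3 were called higher beside 5.28% of all genes, Hsd3b2 (2.43 ± 0.22, adjusted p = 5.1e-07, edgeR), Hsd3b3 (1.49 ± 0.16, adjusted p = 3e-06) and Hsd17b6 (1.28 ± 0.32, adjusted p = 0.00643). The first 2 are 3-beta-hydroxysteroid dehydrogenases. The same 3 were called higher with DEN on CD, beside 4.7% of all genes, at 2.07 ± 0.22, 1.14 ± 0.16 and 1.36 ± 0.32, and that of Hsd3b3 was lost at 0.92 without nonDEN-L-CD replicate 2. Both comparisons share the nonDEN-L-CD libraries. The interaction was called for 2 of 16, beside 2.75% of all genes, Hsd3b2 (-2.34 ± 0.27, adjusted p = 2.97e-05) and Hsd3b3 (-1.32 ± 0.20, adjusted p = 0.000541).

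In tumor against peritumoral liver 3 of these 16 were called lower and 1 higher, beside 7.9% of all genes, with a median of -0.04. The sulfotransferase Sult2a8 changed by -1.77 ± 0.22 (adjusted p = 3.23e-06), Srd5a1, a steroid 5-alpha-reductase, by -1.33 ± 0.15 (adjusted p = 8.02e-07, edgeR), and Hsd3b2 by -1.23 ± 0.15 (adjusted p = 2.14e-06). Against nonDEN-L-WD, 5 were called lower and 4 higher in tumors, beside 15.7% of all genes. Hsd3b5 was at -3.31 ± 0.77 (adjusted p = 0.00121), and Cyp17a1, the 17-alpha-hydroxylase, at 1.74 ± 0.56 (adjusted p = 0.0138), a call lost without nonDEN-L-WD replicate 2.

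Polyol and fructose handling genes, around the step of Akr1b3, were a list of 8, and none was called in any of the 7 comparisons, where 1.9% to 15.7% of all genes were. On the adjusted p alone 0 to 5 of 8 passed, and in tumor against peritumoral liver 1 was higher and 3 lower, with a median of -0.09. Of all genes 37.7% passed there, and 49.0% in tumor against nonDEN-L-WD, where 5 of 8 did. Sord, sorbitol dehydrogenase, was the most abundant of them by TPM, at 775 ± 93 TPM (n = 8) in DEN-PT-WD and 535 ± 76 TPM (n = 6) in DEN-T-WD.

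Carbonyl reductases and aldehyde dehydrogenases of other families were a list of 15. In tumor against peritumoral liver 2 were called higher and 1 lower, beside 7.9% of all genes, with a median of -0.48. On the adjusted p alone 2 were higher and 8 lower, beside 37.7%. The carbonyl reductases Cbr3 (3.25 ± 0.64, adjusted p = 0.000396) and Cbr1 (1.12 ± 0.28, adjusted p = 0.00332, edgeR) were higher, but DEN-T-WD replicate 5 held the highest tumor values, 6013 and 8656 normalized counts. Without it the changes were 1.49 ± 0.39 for Cbr3, still called, and 0.54 ± 0.17 for Cbr1, not called. Adh4, an alcohol dehydrogenase, was lower (-1.19 ± 0.12, adjusted p = 3.32e-07). On WD without DEN, 2 of 15 were called higher beside 5.28% of all genes, Aldh3a2 (1.47 ± 0.27, adjusted p = 0.00055) and Aldh1a1 (1.00 ± 0.28, adjusted p = 0.0122), the second at the fold threshold and lost without nonDEN-L-CD replicate 3 or nonDEN-L-WD replicate 3. In tumor against nonDEN-L-WD, 2 were called higher and 3 lower, beside 15.7% of all genes, with Aldh3a2 lower (-1.37 ± 0.21, adjusted p = 1.86e-05, edgeR). Its interaction was called too (-1.06 ± 0.33, adjusted p = 0.0478), but in only 5 of the 19 fits that left out 1 library.

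Likeness between genes was measured by Pearson's r of log2 CPM (counts scaled to library size) over the 25 libraries, which share groups and library effects, so r is a description. For Akr1c18 the 2 most alike of all other tested genes were Kif5c (r = 0.98), a kinesin, and Klrb1b (r = 0.97), a receptor of natural killer cells. Afp and Gpc3, fetal liver genes often raised in liver cancer, were the fifth and sixth at 0.96 and 0.95, and were named after their values were seen. For Akr1b3 they were Clmp (0.98) and Klhl13 (0.97), and for Akr1b7 Mob3a (0.92). Akr1c6 was most like Rgn (0.99), the calcium-binding regucalcin, and Ugt3a2 (0.98), a glycosyltransferase. Akr1d1 was most like Iyd (0.91), the iodotyrosine deiodinase, and Mras (0.90). Akr1c20 was most like Acss3 (0.87) and Ugt1a1 (0.87), the bilirubin glucuronosyltransferase. Akr1c14 was most like Dtd2 and Tmcc1 (both 0.89), Akr1c13 Cox17 and Maoa (both 0.89), and Akr1c12 Gm29216 (0.85) and Zbtb8os (0.81). Akr1c19 was most like Marcksl1-ps4 (0.89), a pseudogene that shares 4.14% of the transcript words of Akr1c19, and Lcp1 (0.87).

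Among the members, Akr1c18, Akr1b3 and Akr1b7 went together (r = 0.88, 0.78 and 0.77 for the 3 pairs), and Akr1c6 went against them (-0.62, -0.72 and -0.87). Several values rested on DEN-T-WD replicate 5. Without it r rose from 0.45 to 0.83 for Akr1d1 with Akr1c6, and from -0.18 to 0.50 for Akr1c6 with Akr1c13. The pair Akr1c12 and Akr1c13 was at 0.72, and at 0.83 without that tumor. The scale mattered as well. On log2(TPM + 1), 29 of the 45 values moved by 0.1 or more, and some turned sign, from 0.39 to -0.19 for Akr1c6 with Akr1c12, from -0.52 to 0.19 for Akr1c12 with Akr1b3 and from -0.25 to 0.46 for Akr1c12 with Akr1b7.

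**Figure D5:**
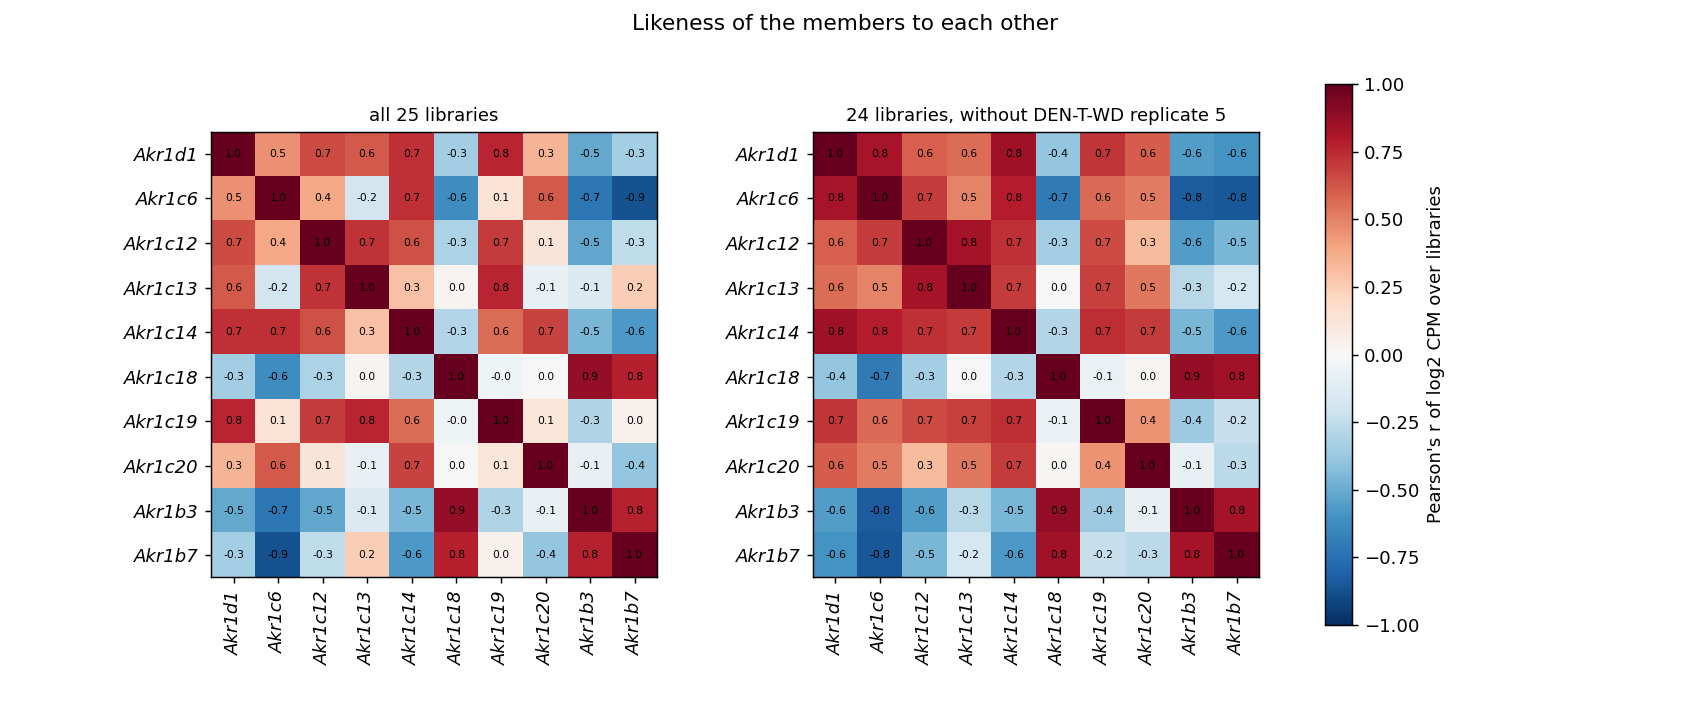
Each cell gives Pearson's r of log2 CPM between 2 members, over 25 libraries on the left and over 24 on the right. The block of Akr1c18, Akr1b3 and Akr1b7 is positive in both, and without DEN-T-WD replicate 5 the values of Akr1c6 with Akr1c12, Akr1c13, Akr1c14 and Akr1c19 are higher and that with Akr1c20 is lower.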

How the data were processed

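Total RNA of snap-frozen liver and tumor was made into poly-A selected, single-end libraries. Per the labels and methods, the authors checked reads with FastQC, aligned them to GRCm38 with STAR and counted genes with RSEM; which STAR and RSEM versions, which annotation release and which strand setting they used is not given in the sources used here. The deposited expected counts are unnormalized estimates per gene. The deposited TPM values are corrected for length and library, and the deposited FPKM values for length and mapped reads. All 25 samples were used.

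After rounding, 1 quasi-likelihood fit of the 5 groups was made in edgeR 4.0.16 (R 4.3.3; TMM scaling, filterByExpr at a minimum count of 10), with Benjamini-Hochberg adjustment over 15625 genes. DESeq2 1.42.0, limma 3.58.1 on log2(TPM + 1), DESeq2 size factors, no filter, only the groups compared, a replicate block and leaving out each library were alternatives. Log2 CPM used a prior count of 2. Gene names were matched for 48349 of 48795 IDs. The fit was tested on simulated counts. Members, gene lists and tests were chosen with earlier results of these data known. Named were all members, every other aldo-keto reductase, up to 4 called genes with the largest change per list and comparison (where the higher group reached 100 normalized counts; with none called, the most abundant gene by TPM) and, per member, the 2 most alike genes at 1 CPM or more. Total expected counts per library (21530083 to 38074411) leave counting error small except for Akr1c18 without DEN and for Akr1b7 in all groups but the tumors. No 2 replicates agreed within sampling noise (the smallest chi-square per gene was 29.1).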

Additional observations from a re-analysis of the deposited data

Results flagged for a closer look

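A value was singled out when, in a group of 4 to 10 libraries, its gap to the nearest other library was a larger part of the group's range than Dixon's 95% limit. This was looked at in 67 groups of values, of the members and the other aldo-keto reductases, and chance alone singles out about 1 in 20 groups. In all, 13 values were singled out, 8 of them in DEN-T-WD replicate 5. In this tumor the normalized counts were 8340 for Akr1d1 (1387 to 2312 in the other 5 tumors), 2473 for Akr1c12 (1478 to 1764), 5278 for Akr1c13 (2286 to 2486), 9328 for Akr1c14 (7341 to 7847), 4270 for Akr1c19 (625.3 to 1154), 187 for Akr1b7 (71.6 to 111) and 8188 for Akr1a1 (5719 to 6450). Akr1c6 was the low one, at 7259 (11296 to 12070).

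In DEN-L-CD, Akr1c18 was at 606 in replicate 4 against 101 to 155, and Afp (453) and Gpc3 (669) were also highest in that library. Akr7a5 was at 2116 in the same library against 1727 to 1729. Akr1b7 was at 36.4 in DEN-L-CD replicate 3 against 6.4 to 10.8, beside adrenal cortex markers at 13.9 TPM. Akr1c20 was at 1079 in DEN-PT-WD replicate 7 against 2138 to 2865. Akr1c21 was at 1138 in nonDEN-L-WD replicate 1 against 0 to 1.9, beside Kap at 15039. The part of these other tissues' genes in the values was not tested.

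The change of Akr1c14 with WD differed between DEN-exposed non-tumor liver and liver without DEN, by -1.12 on the log2 scale in the interaction of the edgeR fit. It was not called by limma on log2(TPM + 1) (-0.96), in the block fit of only the groups compared (-1.08), or without nonDEN-L-CD replicate 2 or 3 or nonDEN-L-WD replicate 4 (-0.96 to -0.99).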

How the results depend on the processing

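No called log2 fold change of a member changed sign under any alternative run (uncalled ones near 0 did, and that of Akr1b7 for DEN on CD). Of 1298 log2 fold changes, 1261 moved by less than the member's SD of log2 CPM between libraries within groups, which is not the SE of the change. The number of members called moved as follows. For WD against CD without DEN it was 0, with 3 on the adjusted p alone and 1 (Akr1d1) in the fit of only the groups compared. For DEN against no DEN on CD it was 2, with 3 by DESeq2 and with a replicate block (Akr1d1 added), 4 in the fit of only the groups compared and 1 by limma on log2(TPM + 1), where Akr1c18 at 2.89 was not called. For peritumoral liver against nonDEN-L-WD it was 2, with 4 on the adjusted p alone and 1 by limma, where Akr1b7 at 0.87 was not called. For peritumoral liver against DEN-L-CD it was 0, with 1 on the adjusted p alone. For the interaction it was 1, with 2 on the adjusted p alone, 2 by DESeq2, 2 in the fit of only the groups compared and 0 by limma. The genes called over the aldo-keto, bile acid, steroid, polyol and carbonyl lists and the marker lists went from 89 to 234 on the adjusted p alone. The share of all tested genes rose too, from 1.9% to 15.7% over the comparisons to 8.39% to 49.0%. The cause was not tested.

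Leaving out each library in turn gave 0 to 1 called members for WD against CD without DEN, 1 to 2 for DEN against no DEN on CD, 0 to 1 for peritumoral liver against DEN-L-CD and 0 to 2 for the interaction. All genes called in these fits ranged, in the same order, from 507 to 959, 430 to 842, 173 to 437 and 232 to 600. The fit of all libraries called 825, 734, 297 and 430. Tumor against peritumoral liver gave 3 to 5, against 4 with all libraries. Akr1d1 was added without DEN-T-WD replicate 5, and Akr1b3 was lost without DEN-T-WD replicate 3. All genes called there ranged from 1114 to 1316, against 1235.

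The labels do not say whether replicate numbers pair the samples. Same-numbered libraries had correlations of their deviations from group means of -0.23 to 0.39, not all above 0.1 in any comparison. Libraries of 1 mouse need not deviate alike, so these values cannot tell whether the numbers are pairs. With a replicate block, 1 member was called for WD against CD without DEN (Akr1d1 at 1.12), 5 for tumor against nonDEN-L-WD (Akr1d1 at -1.31) and 2 for the interaction (Akr1d1 at -1.68). In the block fit of only the groups compared, added after seeing the data, 1 was called for WD against CD without DEN and 1 (Akr1c18) for peritumoral liver against DEN-L-CD, and Akr1c18 at 2.39 was not called between tumor and peritumoral liver. There Akr1c14 lost its call for DEN on CD (1.09) and for the interaction (-1.08), and Akr1d1 was called for DEN on CD (1.16), for the interaction (-1.53) and in tumor against nonDEN-L-WD (-1.48). The block fit of only the groups compared called 308 of all genes for DEN on CD. The main fit of all 25 libraries called 734, and only the groups compared without a block 724. For peritumoral liver against nonDEN-L-WD it called 165 (432 and 367), and against DEN-L-CD 354 (297 and 284). It called 460 for the interaction (430 and 490).

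Limma on log2(TPM + 1) called 300 of all genes for WD against CD without DEN (edgeR 825), 234 for DEN on CD (734), 206 (432) and 180 (297) for peritumoral liver against nonDEN-L-WD and DEN-L-CD, 539 (1235) and 1394 (2447) for tumors against peritumoral liver and nonDEN-L-WD, and 240 (430) for the interaction, with the median of all genes at up to 0.26, against 0.02 in the edgeR fit of the same comparison. Counts under 10 limit Akr1c18 without DEN.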
